A study of Mus musculus with 12 samples.

Results

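The interleukin 1 (IL-1) family and its receptors were examined in mouse embryonic fibroblasts (MEFs) through every non-control array probe named for Il1a, Il1b, Il18, Il33, Il1rn, Il1r1, Il1rl1 or Il1rap. These 8 genes are 8 of 27670 gene names on the array and were measured by 16 of its 41174 distinct probes, and Il33 was listed under its older name 9230117N10Rik. The genes were chosen by family membership with the fold changes and calls of an earlier analysis of these same arrays in view, so the p-values given for them are descriptive and support nothing. WT and homozygous GR-C3 knockin MEFs had been grown from E12.5 embryos of mice kept on a C57Bl/6 background. In the knockin, exon 2 of Nr3c1, the gene of the glucocorticoid receptor (GR), keeps only the start codon of the GR-C3 translational isoform, those of the other isoforms being mutated, and the hygromycin cassette used for selection had been removed with Flp recombinase. The knockin mice descend from 1 targeted ES cell clone. The synthetic glucocorticoid dexamethasone (Dex) was given at 100 nM, or vehicle in its place, and RNA was taken after 6 hours, with 3 arrays in each of the 4 groups. The labels speak of biological replicates without naming embryos or cultures, so the p-values rest on the spread among these samples, which may be technical. Each member was compared with and without Dex in either genotype, between the genotypes in its Dex change, and between the genotypes at either treatment.

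IL-1 family cytokines are alarm signals of damaged or infected tissue. IL-1 alpha and IL-1 beta bind the receptor encoded by Il1r1, which then recruits the accessory chain encoded by Il1rap and drives NF-kappaB target genes. The antagonist encoded by Il1rn occupies the same receptor without recruiting that chain. IL-33 signals through ST2, the product of Il1rl1, with the same accessory chain, and a shorter ST2 transcript encodes a secreted decoy that was first found in growth-stimulated fibroblasts. Fibroblasts are known both as responders to IL-1 and as sources of IL-33.

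Every level below is log2 processed signal minus that of the array's 75th percentile, which was 883 to 1815 intensity units. Precision is limited by there being 3 arrays a group. The labelled cell type was checked on marker genes: 11 of 11 fibroblast markers were above background on all arrays, as were 9 of 11 macrophage, 6 of 8 mast cell, 4 of 7 epithelial and 4 of 6 endothelial markers. In linear units of the 75th percentile the fibroblast markers summed to 698 to 946 on the arrays, and the largest sum of the other lists, that of the macrophage markers, was 5.57 to 8.94. One WT vehicle array, replicate 1 by its label, lay apart from its group. Across probes it correlated at 0.982 with the other WT vehicle arrays, which correlated at 0.998 with each other, and at 0.986 to 0.988 with the WT Dex arrays. It was also alone on its slide and on its scan day. The comparisons were therefore fitted both with all 12 arrays and with the 11 others. Of the 16 member probes, 13 passed the filter on low signals, which kept a probe only where every array of some group read above background. A probe that passed only through its bright group had to differ from a dim one, so counts over the 13 are descriptive.

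Il1rl1 was read by 3 probes, which are shown because the transcripts they match separate the receptor from its decoy. The files assign the first to transcript variant 2, known as the secreted form (chr1:40688351-40688410, plus strand, build mm7), and the second to transcript variant 1, known as the membrane receptor (chr1:40705585-40705644). The third carries the accession of variant 2 but lies upstream of both, in the part these transcripts are known to share, and is called the shared probe here. It spans 863 bases of the genome (chr1:40680766-40681628), so its 60 bases cross a splice junction. For the variant probes the first 30 of 60 bases are given, and no letter is marked.

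Il1rl1 variant 2 probe: ctctgtaacaggatcttttgtctagatttc
Il1rl1 variant 1 probe: tgaccttatttgcttaccagttacaggtaa
Il1rl1 shared probe: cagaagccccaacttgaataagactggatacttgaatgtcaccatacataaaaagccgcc

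Il1rl1 was higher in GR-C3 than in WT cells by all 3 probes, up to 4.05-fold, and by the variant 2 probe it rose with Dex in WT cells. In such bulk samples fewer cells of a type and less RNA per cell cannot be told apart. By the variant 2 probe it lay at 2.40, 2.40 and 2.62 on the WT vehicle arrays and at 3.39, 3.39 and 3.11 on the WT Dex arrays. The GR-C3 arrays lay at 4.42, 4.47 and 4.58 under vehicle and at 4.43, 4.33 and 4.24 under Dex. Every WT Dex array was above every WT vehicle array, and every GR-C3 array was above every WT array, while the GR-C3 groups overlapped. The order of the group means was thus WT vehicle, WT Dex, GR-C3 Dex and GR-C3 vehicle, and the last pair did not differ beyond their spread.

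By the variant 1 probe, Il1rl1 lay at 1.47, 0.73 and 0.74 in WT vehicle and at 1.29, 1.33 and 1.08 in WT Dex. In GR-C3 cells this probe read 1.90, 2.06 and 2.16 under vehicle and 1.67, 1.71 and 1.62 under Dex. The 1.47 is the array labelled WT vehicle replicate 1, which lay above all WT Dex arrays by this probe, whereas by the variant 2 probe it lay with its group. By the shared probe Il1rl1 read -2.18, -2.29 and -1.95 in WT vehicle and -1.14, -1.70 and -1.44 in WT Dex. In GR-C3 its signal was -0.98, -0.83 and -0.66 with vehicle and -0.66, -0.81 and -0.84 with Dex. By the shared probe, too, WT vehicle was lowest, WT Dex in between, and both GR-C3 groups highest and overlapping.

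**Figure D1:**
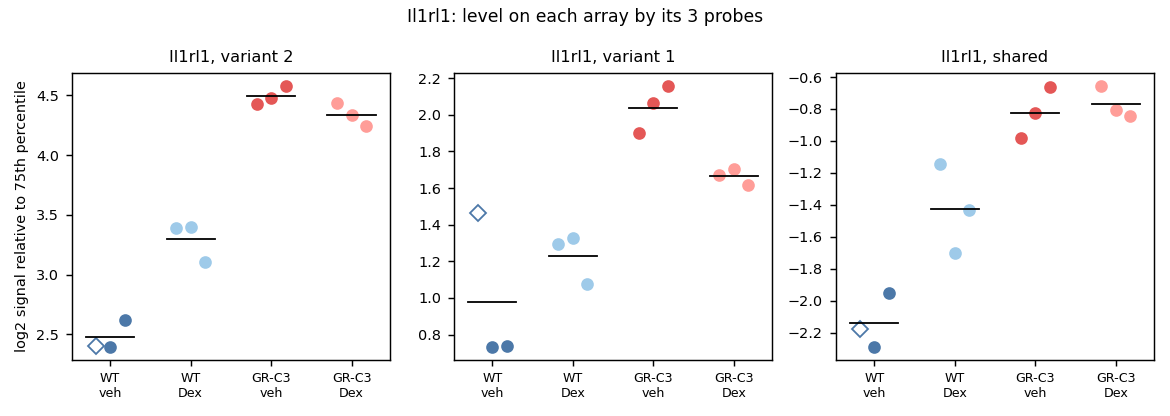
Log2 signal of the 3 Il1rl1 probes relative to the 75th percentile (vertical axis) on each array of the 4 groups; circles are arrays, the open diamond is the array labelled WT vehicle replicate 1, and lines are group means. By the variant 2 probe the WT vehicle arrays sit between 2.40 and 2.62 and the GR-C3 vehicle arrays between 4.42 and 4.58.

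The change of Il1rl1 with Dex in WT cells was 0.82 on the log2 scale by the variant 2 probe (SE 0.117, 1.77-fold, limma adjusted p = 0.0453, 12 arrays). This was the only member probe called among the 13 tested, and it was higher, against 0.107% of all 30934 probes tested called either way and 0.0356% called higher, where called means a Benjamini-Hochberg adjusted p under 0.05 over all of them. The call was lost on leaving out any array except WT vehicle replicate 1 or WT Dex replicate 1. With 12 arrays the variant 1 probe changed by 0.25 (SE 0.180, adjusted p = 0.505) and the shared probe by 0.71 (SE 0.155, adjusted p = 0.102). On leaving the outlying WT vehicle array out, all 3 probes of Il1rl1 rose: variant 2 by 0.79 (SE 0.123, adjusted p = 0.00314), variant 1 by 0.49 (SE 0.110, adjusted p = 0.0188) and the shared probe by 0.69 (SE 0.173, adjusted p = 0.0314). In that fit of 11 arrays 5 of 13 member probes were called, 4 higher and 1 lower, against 11.1% of 31446 probes (4.82% higher and 6.25% lower). Leaving out WT vehicle replicate 2 or replicate 3 as well brought this count to 2 in each case, with the lone vehicle array taken to vary like the other groups. The calls of variant 1 and the shared probe were lost in both cases and that of variant 2 without replicate 2. That of the shared probe was also lost without WT Dex replicate 3 or GR-C3 vehicle replicate 2. With the slide block, variant 1 was not called in this comparison (adjusted p = 0.0792).

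In GR-C3 cells no Il1rl1 probe was called with Dex. The log2 changes were -0.16 for variant 2 (SE 0.117), -0.38 for variant 1 (SE 0.180) and 0.05 for the shared probe (SE 0.155) with 12 arrays, with limma adjusted p of 0.654, 0.480 and 0.927. With 11 arrays the variant 1 probe, whose GR-C3 groups did not overlap, had an adjusted p of 0.0864.

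The Dex changes of Il1rl1 were compared between the genotypes by the interaction, which is the change in GR-C3 cells minus that in WT cells. With 12 arrays it was -0.98 for variant 2 (SE 0.165, limma adjusted p = 0.387), -0.63 for variant 1 (SE 0.255, adjusted p = 0.791) and -0.66 for the shared probe (SE 0.219, adjusted p = 0.706). No probe of any gene was called there, 0% of 30934, while 1897 had an unadjusted p under 0.05. With 11 arrays the interaction was called for variant 2 at -0.94 (SE 0.165, adjusted p = 0.0345) and for variant 1 at -0.87 (SE 0.148, adjusted p = 0.0298). The shared probe had -0.64 (SE 0.233, adjusted p = 0.265), and the 2 probes called of 13, both lower, stand against 0.855% of all probes and 0.607% called lower. The count fell to 0 without WT vehicle replicate 2 or 3, WT Dex replicate 2, GR-C3 vehicle replicate 2 or 3, or GR-C3 Dex replicate 2 or 3, and to 1 without GR-C3 vehicle replicate 1 or GR-C3 Dex replicate 1. Slides differ between the groups. With slide as a block in the 11-array fit the interactions were -1.12 (adjusted p = 0.181), -1.05 (adjusted p = 0.142) and -1.08 (adjusted p = 0.250), so the calls of variants 2 and 1 were lost. The shared probe, which was not called without the block either, moved from -0.64 to -1.08.

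On the slide that held WT vehicle replicates 2 and 3 with WT Dex replicate 1, the Dex array was above the mean of the vehicle arrays by 0.88 for variant 2, 0.56 for variant 1 and 0.98 for the shared probe. On the slide that held GR-C3 vehicle replicate 3 with the 3 GR-C3 Dex arrays, Dex minus vehicle was -0.24, -0.49 and -0.10 for the same probes. The signs were those of the whole fit, except that of the shared probe in GR-C3 cells. These arrays are part of that fit, so the signs are no separate support. With slide as a block, the Dex changes are these within-slide values. The blocked WT change of a probe thus rests on 1 Dex array and that in GR-C3 cells on 1 vehicle array.

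Among themselves the Il1rl1 probes did not change equally with Dex. Averaged over the genotypes, variant 2 changed by 0.40 more than variant 1 with 12 arrays (two-sided exact permutation within genotype, p = 0.005, the smallest these permutations can give, 0.015 adjusted over 3 pairs). With 11 arrays this difference was 0.26 (exact permutation p = 0.005, adjusted p = 0.015). It was present in each genotype, at 0.57 in WT and 0.22 in GR-C3 with 12 arrays, and at 0.29 in WT with 11. Variant 1 changed by 0.45 less than the shared probe with 12 arrays (mean difference -0.45, exact permutation adjusted p = 0.03) and by 0.31 less with 11 (mean difference -0.31, adjusted p = 0.0975). Variant 2 and the shared probe differed by -0.05 with 12 arrays (exact permutation adjusted p = 0.735) and by -0.06 with 11 arrays (adjusted p = 0.755). Only changes were compared here, since levels of different probes have no common scale.

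Under vehicle all 3 Il1rl1 probes were higher in GR-C3 than in WT cells. The log2 differences with 12 arrays were 2.02 for variant 2 (SE 0.117, 4.05-fold, limma adjusted p = 1.3e-06), 1.06 for variant 1 (SE 0.180, 2.09-fold, adjusted p = 0.00186) and 1.32 for the shared probe (SE 0.155, 2.49-fold, adjusted p = 0.000163). With 11 arrays they were 1.98, 1.30 and 1.30, all called. With the slide block on 11 arrays they were 2.08, 1.34 and 1.64, also called. Under Dex the differences were 1.04 for variant 2 (2.06-fold, adjusted p = 0.000112), 0.66 for the shared probe (adjusted p = 0.00992) and 0.43 for variant 1, which was not called with 12 arrays (adjusted p = 0.0946) and was called with 11 (adjusted p = 0.00738). With slide as a block in the 11-array fit, the Dex differences were 0.96 (adjusted p = 0.0224), 0.56 (adjusted p = 0.152) and 0.29 (adjusted p = 0.309), so only that of variant 2 was called. No slide held both genotypes under the same treatment, so no within-slide genotype value exists. A blocked genotype difference, here and for the other genes, adds contrasts across treatments. It sets GR-C3 vehicle replicates 1 and 2 against WT Dex replicates 2 and 3 of the same slide. To this it adds a within-slide Dex change, in WT cells for the vehicle difference and in GR-C3 cells for the Dex difference. It thus rests in part on WT Dex replicate 1 or GR-C3 vehicle replicate 3 alone.

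The region before each of 2 Il1rl1 starts is printed because all probes of the gene shared the genotype difference. RefSeq (build GRCm38.p6, a later build than that of the probes) places the windows of 250 bases before these starts at chr1:40429320-40429569 and chr1:40439379-40439628, both on the plus strand. The RefSeq gene begins further upstream, at chr1:40404864, and the bases before that position were not searched. Capitals mark the letters AGATAA or TGATAA on either strand, core forms of the GATA motif.

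Il1rl1 first start: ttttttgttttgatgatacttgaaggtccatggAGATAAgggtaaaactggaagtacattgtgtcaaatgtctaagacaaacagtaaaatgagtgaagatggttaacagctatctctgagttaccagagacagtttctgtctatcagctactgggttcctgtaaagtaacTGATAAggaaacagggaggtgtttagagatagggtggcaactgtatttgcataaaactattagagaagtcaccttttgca
Il1rl1 second start: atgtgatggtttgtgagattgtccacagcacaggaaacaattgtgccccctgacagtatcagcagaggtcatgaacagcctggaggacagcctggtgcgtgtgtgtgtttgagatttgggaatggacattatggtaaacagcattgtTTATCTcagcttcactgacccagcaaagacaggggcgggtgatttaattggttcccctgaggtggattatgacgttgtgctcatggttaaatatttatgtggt

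AGATAA occurs in 9.99% and TGATAA in 7.94% of the 32851 RefSeq windows of this length. Neither Il1rl1 window holds the 15-letter palindromic glucocorticoid response element, found in 0.0091% of windows. Nor do they hold AGAACA, a single arm of that element (16.1% of windows), the AP-1 spelling TGANTCA (6.75%) or the NF-kappaB consensus (7.25%). Of the other members, the first Il1rn start and the Il1a start each have 1 TGANTCA. The second Il1r1 start has 1 AGAACA and 1 NF-kappaB consensus, and the Il18 start has 1 AGAACA. These are letter matches in short windows and say nothing of binding.

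Il1r1, the signalling receptor for IL-1 alpha and beta, was called in none of the 5 comparisons with 12 or with 11 arrays. Its probe (chr1:40555675-40555734, mm7) read 1.0, 0.02 and 0.09 in WT vehicle and 0.90, 0.24 and 0.57 in WT Dex. In GR-C3 cells it read 0.15, 0.19 and 0.26 with vehicle and 0.38, 0.25 and 0.22 with Dex. The 1.0 is the array labelled WT vehicle replicate 1 and is the highest of all 12. The change with Dex in WT was 0.20 with 12 arrays (limma adjusted p = 0.712) and 0.52 with 11 (SE 0.163, adjusted p = 0.0725). With the slide block on 11 arrays it was 0.85 and was called (adjusted p = 0.0263). That value sets WT Dex replicate 1 alone, the 0.90, against the 2 WT vehicle arrays of its slide. In GR-C3 cells Il1r1 changed by 0.09, and the genotype difference under vehicle was -0.17 with 12 arrays and 0.15 with 11, so its sign rests on that 1 array.

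Il1rap, the accessory chain shared by the IL-1, IL-33 and IL-36 receptors, had 4 tested probes that did not behave alike. The probe on transcript AK045686 (chr16:26378192-26378251, mm7) read 0.31, -1.12 and -0.93 in WT vehicle and 0.43, -0.05 and 0.60 in WT Dex. The GR-C3 arrays read -1.47, -1.60 and -1.06 under vehicle and -0.95, -1.0 and -1.04 under Dex. The 0.31 is again the array labelled WT vehicle replicate 1, which lies within the WT Dex range, while the other WT vehicle arrays are close to the GR-C3 arrays, with -0.93 just above the highest of them.

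By this probe the Il1rap change with Dex in WT was 0.91 with 12 arrays (SE 0.322, limma adjusted p = 0.210) and 1.35 with 11 (SE 0.201, 2.55-fold, adjusted p = 0.00242). The slide block on 11 arrays gave 1.45 (adjusted p = 0.0184), a value that again rests on WT Dex replicate 1 alone among the WT Dex arrays. In GR-C3 cells the change was 0.38 (adjusted p = 0.699 with 12 and 0.324 with 11 arrays), and the interaction was -0.52 and -0.97 (adjusted p = 0.890 and 0.149). Under Dex it was lower in GR-C3 cells by 1.32 (difference -1.32, 2.5-fold lower, adjusted p = 0.0118 with 12 and 0.000429 with 11 arrays). With 12 arrays this call was lost without WT Dex replicate 3.

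The probe on Il1rap variant 1, known as the membrane form (chr16:26377135-26377193, mm7), read -4.36, -5.40 and -4.58 in WT vehicle and -3.37, -5.18 and -4.12 in WT Dex. In GR-C3 its signal was -6.73, -6.27 and -5.90 with vehicle and -5.33, -5.57 and -5.70 with Dex. Only 1 of the 3 GR-C3 vehicle arrays was above background, so that group includes signals near background. It was lower in GR-C3 cells under vehicle with 12 arrays (-1.52, SE 0.411, limma adjusted p = 0.0222), not called with 11 (-1.31, adjusted p = 0.063). Under Dex it was lower by 1.31 (difference -1.31, 2.48-fold lower, adjusted p = 0.036 with 12 and 0.0315 with 11 arrays). With slide as a block in the 11-array fit, the vehicle difference was -0.22 and the Dex difference -1.49, neither called (adjusted p = 0.883 and 0.145). With the normexp background correction and 12 arrays the Il1rap vehicle difference was -0.32 and not called (adjusted p = 0.113), and the Dex difference was -0.69 and called (adjusted p = 0.00278), so the sizes by this probe depend on how signals near background are treated. With 12 arrays the vehicle call was also lost without WT vehicle replicate 3 or GR-C3 vehicle replicate 1 or 2. With 11 arrays the Dex call was lost without WT Dex replicate 1 or 3 or GR-C3 Dex replicate 2 or 3.

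The Il1rap variant 2 probe, known as the soluble form (chr16:26362501-26362560, mm7), lay between -2.42 and -1.75 and was called in no comparison. Nor was the probe on transcript AK083209 (chr16:26385862-26385921, mm7), which lay between -5.54 and -4.49. The gene as a whole therefore has no single direction on this array.

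Il1rn, the receptor antagonist, was lower in GR-C3 cells than in WT cells by both of its probes. By the contiguous probe (chr2:24357916-24357975, mm7) it lay at 3.35, 2.34 and 2.81 in WT vehicle and 3.37, 3.16 and 3.48 in WT Dex. In GR-C3 cells it lay at 0.77, 0.35 and 1.08 with vehicle and at 1.41, 1.75 and 1.5 with Dex. The other probe spans 1021 bases (chr2:24354826-24355846, mm7), hence a splice junction, and is printed because it is the member probe called with Dex in GR-C3 cells.

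Il1rn junction probe: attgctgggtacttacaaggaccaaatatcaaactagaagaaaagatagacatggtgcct

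By this probe Il1rn read -1.04, -1.39 and -0.97 in WT vehicle and -0.34, -1.22 and -1.02 in WT Dex. The GR-C3 arrays read -4.11, -4.35 and -3.87 with vehicle and -3.11, -2.78 and -2.82 with Dex. By both probes every GR-C3 array was below every WT array, and within GR-C3 every Dex array was above every vehicle array. In WT cells the vehicle and Dex groups overlapped by the junction probe, and by the contiguous probe only through the array labelled WT vehicle replicate 1.

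The difference of Il1rn under vehicle, GR-C3 minus WT, was -2.10 by the contiguous probe (SE 0.247, 4.28-fold lower, limma adjusted p = 0.000164) and -2.98 by the junction probe (SE 0.221, 7.88-fold lower, adjusted p = 6.17e-06) with 12 arrays. With 11 arrays the values were -1.84 and -2.93, both called. Under Dex they were -1.79 (3.45-fold lower, adjusted p = 0.000452) and -2.05 (4.13-fold lower, adjusted p = 8.66e-05) with 12 arrays. With the slide block on 11 arrays all 4 of these differences were called, between -1.96 and -2.29.

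With Dex in GR-C3 cells Il1rn changed by 1.20 by the junction probe (SE 0.221, 2.3-fold, limma adjusted p = 0.0711) and by 0.82 by the contiguous probe (SE 0.247, adjusted p = 0.247) with 12 arrays. None of the 13 member probes was called in this 12-array comparison, against 0.110% of all probes (0.0905% higher and 0.0194% lower), and 3396 of 30934 probes had an unadjusted p under 0.05. With 11 arrays the junction probe was called at 1.20 (SE 0.227, adjusted p = 0.023), the 1 member call, a higher one, against 2.70% of all probes (1.76% higher and 0.938% lower), and the contiguous probe was not (adjusted p = 0.0626). The array left out is a WT array, which bears on the shared estimate of the spread and on the probes tested, not on the GR-C3 values. The call was lost on leaving out GR-C3 vehicle replicate 1 or 2, or GR-C3 Dex replicate 2 or 3, and with the slide block it had an adjusted p of 0.0882 at 0.96. With the normexp background correction the change was 0.74 (adjusted p = 0.0548). Within the slide of GR-C3 vehicle replicate 3 and the Dex arrays, Dex minus vehicle was 0.96 by the junction and 0.47 by the contiguous probe. The 0.96 is the same contrast as that of the slide block.

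In WT cells the Il1rn changes with Dex were 0.51 by the contiguous and 0.27 by the junction probe with 12 arrays (limma adjusted p = 0.329 and 0.568), and 0.77 and 0.32 with 11 (adjusted p = 0.0524 and 0.447). The interactions of Il1rn were 0.31 and 0.93 with 12 arrays and 0.05 and 0.89 with 11, none called, with the lowest adjusted p at 0.287.

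Among the ligands, Il33 was lower on every WT Dex array than on every WT vehicle array, though the closest pair was nearly equal at -3.91 and -3.90. The fall was called with 11 arrays and not with 12. Il33, a nuclear cytokine released on cell damage (chr19:29660344-29660403, mm7), lay at -3.90, -3.49 and -3.32 in WT vehicle and at -3.91, -4.21 and -4.30 in WT Dex. In GR-C3 its signal was -3.03, -3.29 and -3.15 under vehicle and -3.53, -3.41 and -3.45 under Dex. The -3.90 is the array labelled WT vehicle replicate 1, at the edge of the WT Dex range. In each genotype all Dex arrays were below all vehicle arrays.

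The Il33 change in WT was -0.57 with 12 arrays (SE 0.159, limma adjusted p = 0.149) and -0.73 with 11 (SE 0.134, 1.66-fold lower, adjusted p = 0.0072). With the normexp background correction the 11-array value was -0.29 (adjusted p = 0.118), and with the slide block it was -0.50 (adjusted p = 0.128), so neither of these made the call. Nor was it called without WT vehicle replicate 3 as well. In GR-C3 cells the change was -0.30 and was not called with 12 or 11 arrays (adjusted p = 0.516 and 0.244). The interaction of Il33 was 0.26 and 0.43 (adjusted p = 0.888 and 0.320), so a difference between the genotypes in this change was not shown. Under Dex Il33 was higher in GR-C3 than in WT cells by 0.68 (1.6-fold, adjusted p = 0.00985 with 12 and 0.00195 with 11 arrays), though with normexp and 12 arrays Il33 was 0.32 higher and not called (adjusted p = 0.0932). Under vehicle it was 0.41 higher with 12 arrays (adjusted p = 0.0842) and 0.25 higher with 11 (adjusted p = 0.202), neither called.

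Il18, a cytokine made as a precursor that caspase-1 cleaves, was read by a junction-crossing probe present in 10 spots (chr9:50557947-50560075, mm7). It lay at -1.61, -1.61 and -1.43 in WT vehicle and -1.62, -1.37 and -1.59 in WT Dex. In GR-C3 cells it lay at -1.92, -1.81 and -1.71 with vehicle and at -2.10, -1.97 and -1.92 with Dex. All GR-C3 arrays were below all WT arrays, and the WT groups overlapped. The spots of 1 array scattered with an SD of 0.0393 to 0.166. Il18 was lower in GR-C3 cells under Dex by 0.47 (difference -0.47, 1.38-fold lower, limma adjusted p = 0.0107 with 12 and 0.00668 with 11 arrays). With slide as a block in the 11-array fit, this was -0.67 (adjusted p = 0.0532) and was not called. Under vehicle the difference of -0.26 was not called (adjusted p = 0.112), and the Dex changes were 0.02 in WT and -0.18 in GR-C3 cells.

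Il1a and Il1b, the agonists of the IL-1 receptor, were at the limit of detection. Il1a read between -6.13 and -5.34 over all arrays by its junction-crossing probe (chr2:129043842-129045576, minus strand, mm7), and 10 of 12 arrays were above background. It was called in no comparison with 12 or 11 arrays. The second Il1a probe was above background only on GR-C3 vehicle replicate 2 and GR-C3 Dex replicate 1. Il1b was above background on no array by its probe, of which up to 10 spots were used on each array, and 1 of these spots on GR-C3 Dex replicate 1 was above background. No fold is given for these 2 probes, nor for the Il1rap probe on transcript AK032620 that was above background on no array either.

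**Figure D2:**
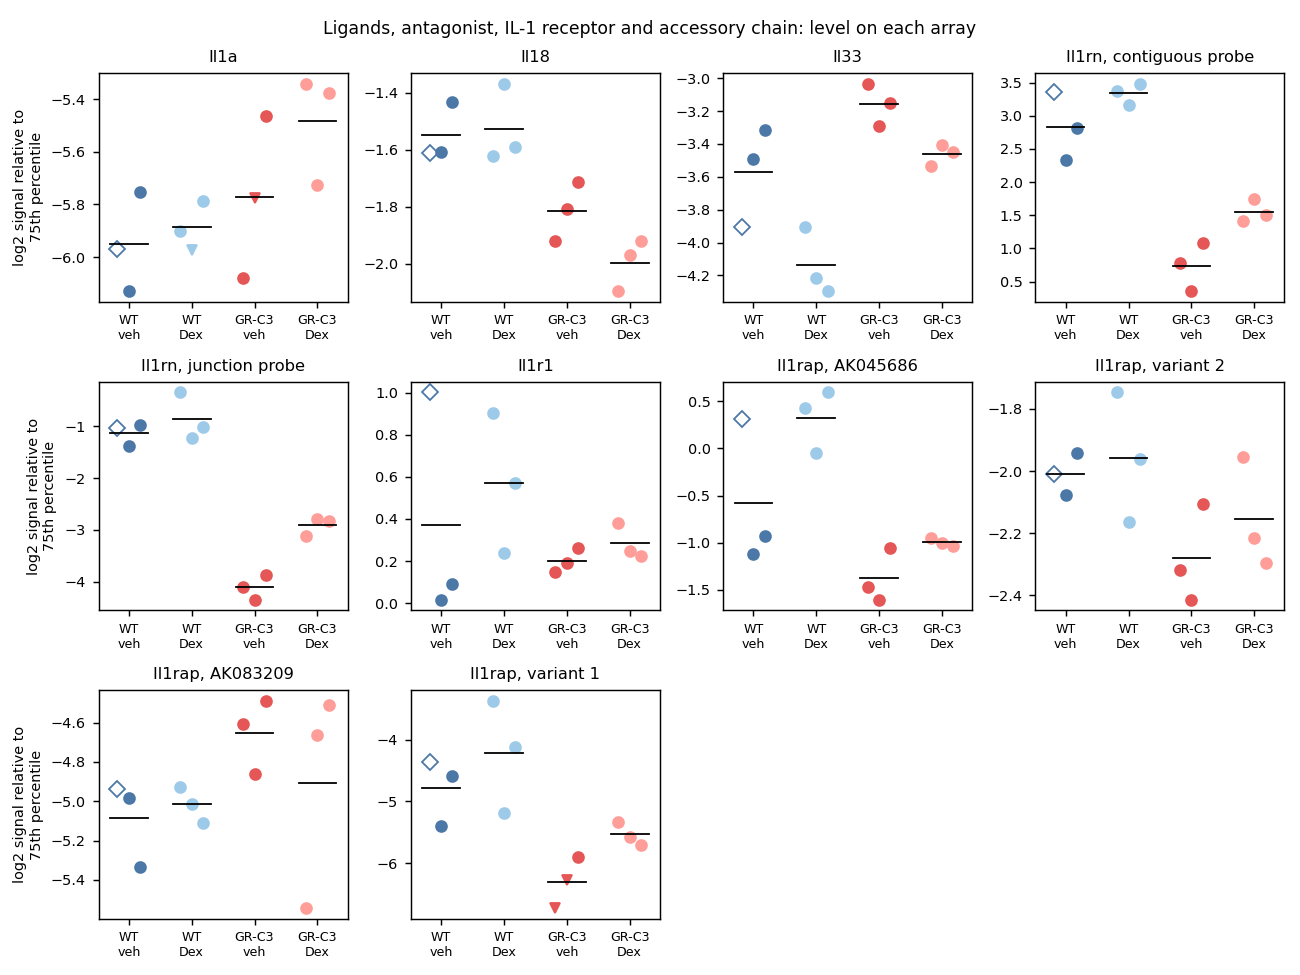
Log2 signal relative to the 75th percentile (vertical axis, scaled per panel) of the 10 other member probes that passed the filter, by group; circles are arrays above background, triangles arrays not well above background, the open diamond the array labelled WT vehicle replicate 1, and lines group means. Both Il1rn panels show all GR-C3 arrays below all WT arrays. The Il33 panel shows Dex arrays below vehicle arrays in each genotype, with WT vehicle replicate 1 nearly equal to the highest WT Dex array.

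**Figure D3:**
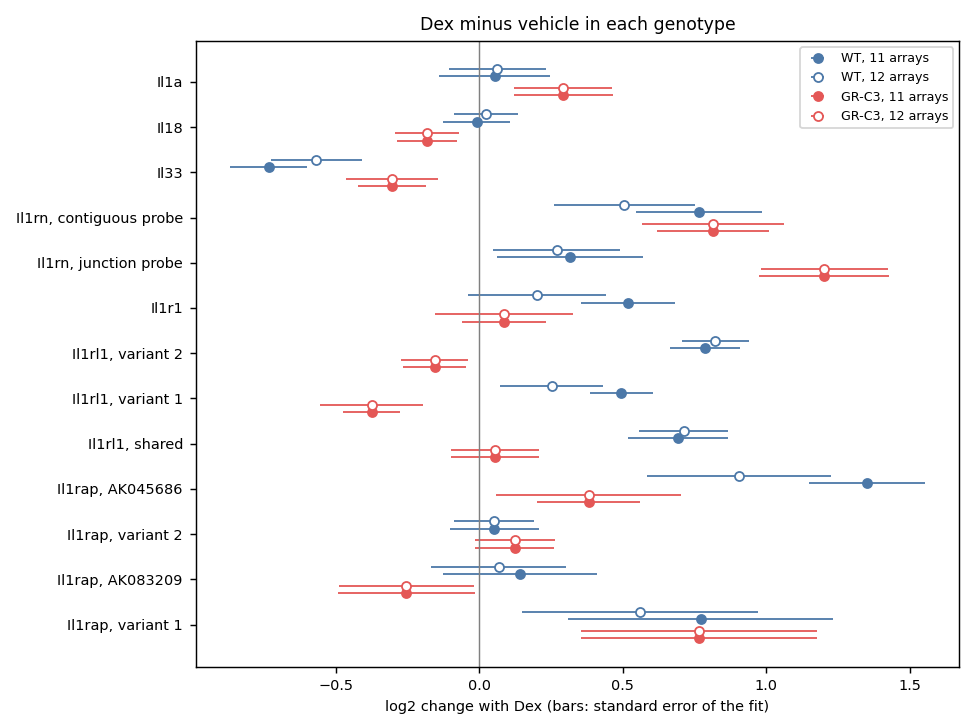
Log2 change with Dex (horizontal axis, bars are standard errors of the fit) of each tested member probe in WT (blue) and GR-C3 (red), with 11 arrays (filled) and 12 arrays (open). The Il1rl1 probes lie at 0.79, 0.49 and 0.69 in WT and at -0.16, -0.38 and 0.05 in GR-C3 with 11 arrays, and the AK045686 probe of Il1rap, Il1r1 and the contiguous Il1rn probe move most between the fits in WT.

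Over both genotype comparisons the member calls were as follows. Under vehicle 6 of 13 probes were called with 12 arrays, 3 higher and 3 lower in GR-C3 cells, against 23.3% of all probes. The 3 higher were those of Il1rl1 (13.0% of all probes were called higher), and the 3 lower were both Il1rn probes and Il1rap variant 1 (10.3% lower). With 11 arrays it was 5, 3 higher and 2 lower, against 26.2% (14.3% higher and 11.9% lower), without Il1rap variant 1. Under Dex 8 of 13 were called with 12 arrays, 3 higher and 5 lower, against 27.6% (16.2% higher and 11.4% lower). With 11 arrays it was 9, 4 higher and 5 lower, against 37.5% (22.5% higher and 15.1% lower). The median difference over the 13 probes was -0.17 under vehicle and -0.20 under Dex with 12 arrays, against 0.08 and 0.11 over all probes, and under vehicle it was 0.15 with 11 arrays. The median change with Dex over the 13 was 0.25 in WT and 0.09 in GR-C3 cells with 12 arrays, against -0.01 and 0.01 over all probes. In WT cells this median was 0.49 with 11 arrays, so 1 array moves it by over 1.5 times.

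**Figure D4:**
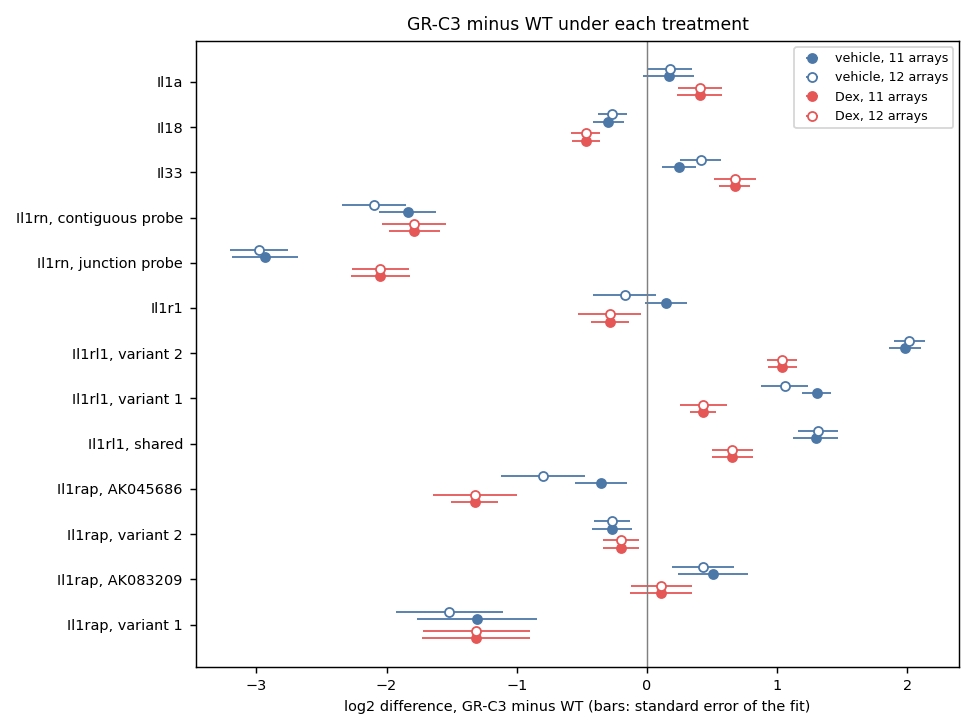
Log2 difference, GR-C3 minus WT (horizontal axis, bars are standard errors of the fit), of each tested member probe under vehicle (blue) and Dex (red), with 11 arrays (filled) and 12 arrays (open). Il1rl1 lies to the right of 0 and Il1rn to the left under both treatments, at 2.02 and -2.98 for the variant 2 and junction probes under vehicle with 12 arrays.

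Il1rl1 and Il1r1 lie in a receptor cluster on mouse chromosome 1, where RefSeq orders the protein-coding genes Il1r2, Il1r1, Il1rl2, Il1rl1, Il18r1 and Il18rap. The genotype differences under vehicle along it with 11 arrays, GR-C3 minus WT, were 1.20 for the decoy receptor Il1r2 (limma adjusted p = 0.0026), 0.15 for Il1r1 and 0.84 for the IL-36 receptor gene Il1rl2 (adjusted p = 0.000456). They went on with 1.30 to 1.98 for Il1rl1 and 0.69 for the IL-18 receptor subunit Il18rap (adjusted p = 0.000845), while Il18r1 was above background on no array. With 12 arrays Il1r2 was 0.78 higher and not called (adjusted p = 0.0913), and its WT vehicle signals in the 11-array fit were near background. Il1rl2 and Il18rap were named after their values were seen. Of the 6 tested genes of the other receptors and binding proteins, 3 were called higher under vehicle with 11 arrays and none lower, against 14.3% of all probes higher and 11.9% lower. With 12 arrays 2 were called higher, against 13.0% of all probes.

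Il1r2 was the 1 other receptor gene called with Dex in WT cells, higher and with 11 arrays, against 4.82% of all probes called higher. It lay at -5.18, -6.54 and -6.31 in WT vehicle and -5.47, -5.13 and -5.17 in WT Dex. The GR-C3 arrays lay at -5.30, -5.31 and -5.08 with vehicle and at -5.68, -4.90 and -5.30 with Dex. The -6.54 and -6.31 lie near the lowest level above background on their arrays, -6.95 and -6.81. Without WT vehicle replicate 1, the -5.18, the Il1r2 change was 1.17 in WT (SE 0.21, limma adjusted p = 0.00601), and with 12 arrays it was 0.75 (adjusted p = 0.257). In GR-C3 cells it was -0.06, and the interaction was not called. Of the 5 other ligand and antagonist genes (the IL-36 genes and Il1f10), 3 were tested and none was called in any comparison by limma, with 2 in WT and 1 in GR-C3 cells at an unadjusted p under 0.05 for Dex with 11 arrays.

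In the signalling arm downstream of the receptors, 19 of 19 genes were tested and 1, Irak3, was called with Dex, in both genotypes, with 11 arrays, with a median change of 0.01 in WT and -0.02 in GR-C3 cells. Over all probes 4.82% were called higher in WT and 1.76% in GR-C3 cells. Irak3, an inhibitor of signalling from IL-1 and Toll-like receptors, lay at -1.19, -2.77 and -2.65 in WT vehicle and -1.04, -0.87 and -0.70 in WT Dex. In GR-C3 its signal was -2.77, -2.95 and -2.69 with vehicle and -2.28, -2.01 and -2.03 with Dex. With 11 arrays Irak3 rose by 1.84 in WT (limma adjusted p = 3.07e-05) and by 0.70 in GR-C3 cells (adjusted p = 0.0156), and the interaction was -1.14 (adjusted p = 0.0245). With 12 arrays the Irak3 changes were 1.33 and 0.70, neither called (adjusted p = 0.122 and 0.472). Of the inflammasome genes, which include caspase-1 that matures Il1b and Il18 products, 5 of 8 were tested and none was called with Dex by limma with 11 arrays, with 2 in WT and 1 in GR-C3 cells at an unadjusted p under 0.05.

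Of 14 tested genes that IL-1 is known to induce, 7 fell and 2 rose with Dex in WT cells and 5 fell in GR-C3 cells with 11 arrays, with median changes of -0.63 and -0.32 against -0.00011 and 0.0082 over all probes. Of all probes 6.25% were called lower and 4.82% higher in WT, and 0.938% lower in GR-C3 cells. By limma with 12 arrays 0 of the 14 were called in either genotype, with 7 in WT and 4 in GR-C3 cells at an unadjusted p under 0.05. The named ones with 11 arrays were Ccl2 (-2.09 in WT and -0.83 in GR-C3), Cxcl5 (-2.17 in WT), Il6 (-1.83 and -1.17) and Vcam1 (-0.96 and -0.46), with limma adjusted p of 0.0239 or lower for each value given. With 12 arrays the WT changes were -1.43 for Ccl2, -1.37 for Cxcl5, -1.22 for Il6 and -0.60 for Vcam1, none called, so those of Cxcl5, Il6 and Vcam1 move by over 1.5 times with the array labelled WT vehicle replicate 1. The interaction was called for Ccl2 at 1.26 and for Cxcl5 at 1.96 with 11 arrays. Under vehicle 7 of the 14 were higher and 2 lower in GR-C3 cells with 11 arrays, against 14.3% and 11.9% of all probes, and under Dex 9 were higher and 4 lower, against 22.5% and 15.1%. With 12 arrays these counts were 6 and 2 under vehicle (13.0% and 10.3% of all probes) and 8 and 2 under Dex (16.2% and 11.4%).

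**Figure D5:**
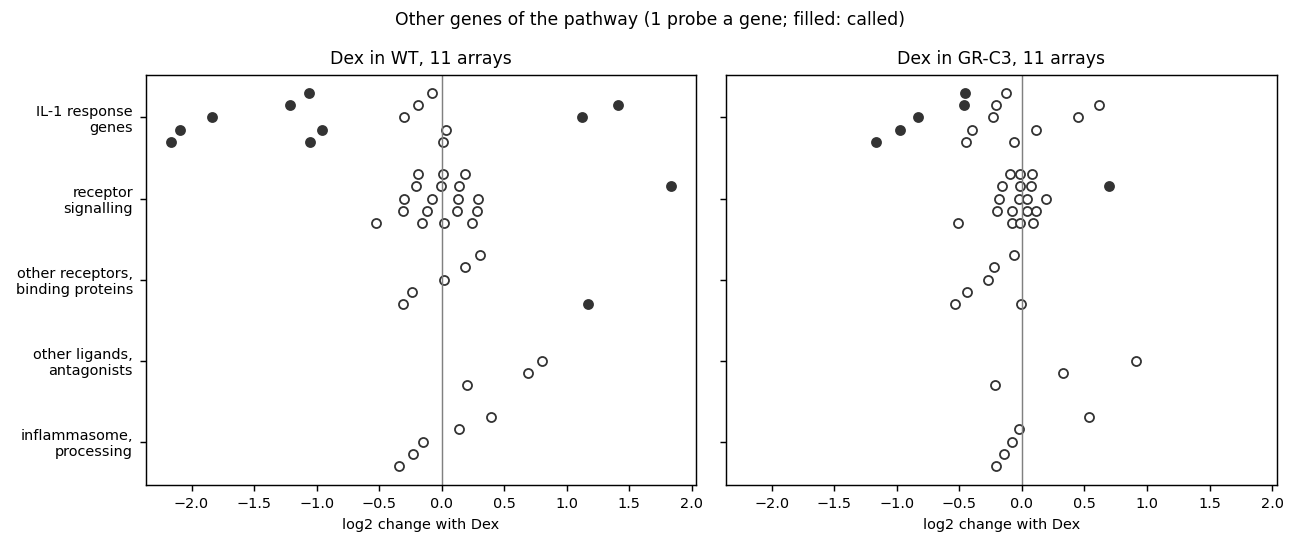
Log2 change with Dex (horizontal axis) of the tested genes of the other pathway lists, in WT (left) and GR-C3 (right) with 11 arrays; each point is a gene, filled where called, and vertical offsets within a list only separate points. Among the IL-1 response genes 7 filled points lie left and 2 right of 0 in WT, and 5 lie left in GR-C3, while of the signalling list only Irak3, at 1.84 and 0.70, is filled.

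The genes whose level most resembled a member over the arrays were found among the kept probes of named genes. For the variant 2 probe of Il1rl1 they were Igsf5, Igf2, Zfp26, Gng2 and Msx1 over 12 arrays, with Pearson r of 0.968 to 0.979. Over 11 arrays they were Snap29, Garre1, Gng2, S100a10 and Depdc1b, with r of 0.979 to 0.991. For Il33 they were Thumpd3, Fam118a, Rnf122, Mex3b and Mphosph9 over 12 arrays (r of 0.971 to 0.987), and Fam118a and Thumpd3 led over 11 as well. For Il1r1 they were Ell2, Abhd17b, Smg1, Postn and Plekhf2 (r of 0.917 to 0.960), of which Abhd17b and Ell2 stayed among the 5 over 11 arrays. The arrays fall into 4 groups, so these values describe a shared group pattern.

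Markers of other cells differed between the genotypes in both directions. Under vehicle 13.0% of all probes were called higher and 10.3% lower in GR-C3 cells with 12 arrays. Shares under Dex were 16.2% and 11.4%. On 11 arrays they were 14.3% and 11.9% under vehicle and 22.5% and 15.1% under Dex. Macrophages are a known source of Il1rn and Il1b, and 3 of the 10 tested macrophage markers were called lower and none higher under vehicle with 12 arrays. These were Ptprc, the leukocyte marker CD45 (difference -1.25), Mrc1 (-1.08) and Lyz2 (-0.39), while Aif1, Csf1r, Cd14 and Fcer1g were 0.65, 0.31, 0.18 and 0.14 higher and not called. Under Dex 1 was called higher, Aif1, and 2 lower. With 11 arrays 4 were called lower and none higher under vehicle. The summed linear level of the 11 macrophage markers, in units of the 75th percentile, was 6.94 to 8.94 on WT arrays and 5.57 to 7.10 on GR-C3 arrays, and it mostly follows Lyz2, the only one with a mean log2 level above 0 in any group.

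Mast cells carry ST2, and of their 7 tested markers 3 were called higher in GR-C3 cells and 1 lower under vehicle, and 4 higher and 1 lower under Dex, with 12 and with 11 arrays alike. Higher under vehicle with 12 arrays were Mcpt4 (1.56), Ms4a2 (0.81) and Kit (0.72), the direction of Il1rl1, and Gata2 was lower (-0.47). The 8 mast cell markers summed to 2.90 to 3.79 in WT and 2.41 to 2.70 in GR-C3, a sum that mostly follows Gata2. Epithelial and endothelial cells are known sources of Il33. Of 5 tested epithelial markers 2 were called higher under vehicle with 12 arrays, Krt18 (2.29) and Krt8 (0.44), and 1 lower, Trp63 (-2.12). With 11 arrays it was 1 higher and 1 lower. Their sum was 0.832 to 1.11 in WT and 1.86 to 2.63 in GR-C3, where it mostly follows Krt18, and Cdh1 was above background on no array. Of 4 tested endothelial markers 2 were called higher, Emcn (1.89) and Kdr (1.44), and none lower, with 12 arrays, and the same counts held with 11. Their sum was 0.656 to 0.861 in WT and 1.99 to 2.66 in GR-C3, and Cdh5 was above background on no array. The marker genes beyond the naming rule were named after their values were seen. The part of these cells in the member differences was not tested.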

How the data were processed

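Cy3-labelled RNA of 12 MEF samples had been read on Agilent arrays in a single colour. The deposited files hold spot intensity made, per the file headers, with Agilent Feature Extraction 9.5.3.1, as background-subtracted processed signal with probe positions in mm7. The deposited series matrix held the same intensity values. From these, each probe's log2 signal was centred here on the 75th percentile within each array. Control spots and spots called outliers were left out, and spots of a probe were averaged. A probe counted as above background on an array where at least 0.5 of its used spots were well above background, and 30934 probes passed the filter with 12 arrays and 31446 with 11. No genome of build mm7 was used here, so exon and UTR positions are not given, and probes named 'junction' are those whose genomic span exceeds their length.

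The 4 group means of each probe were fitted by lmFit and contrasts moderated by eBayes (limma 3.58.1 under R 4.3.3), and Benjamini-Hochberg adjusted p under 0.05 was called. SE is the standard error of the fit. Differences between Il1rl1 probes were tested by exact permutation. The fit was tested on simulated data. Members, gene lists, tests and the named-gene rule were chosen with earlier results of these data known. Beyond the members, the rule names up to 4 called genes of each list with the smallest p in a Dex comparison with 11 arrays, using the kept probe with the highest mean of a gene, and the 5 named genes most correlated with Il1rl1, Il33 and Il1r1. The IL-36 genes carry their older Il1f symbols in the files. Marker lists are given mainly by counts and sums. Gene names of all probes were updated through RefSeq for 22951 probes by accession, 6659 by symbol and 3109 by synonym, and kept from the files for 8455. Alternatives were quantile normalization, normexp background correction with offset 50, other filters, 1 probe a gene, slide or replicate number as a block, fits within a genotype and leaving out each array.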

Additional observations from a re-analysis of the deposited data

Results flagged for a closer look

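The Dex change of Il1rl1 differed between the genotypes by the interaction test of limma with 11 arrays. For the variant 2 probe the interaction was -0.94 on the log2 scale (SE 0.165, adjusted p = 0.0345), with a change of 0.79 in WT and -0.16 in GR-C3 cells. For the variant 1 probe it was -0.87 (SE 0.148, adjusted p = 0.0298), with 0.49 in WT and -0.38 in GR-C3 cells. All 3 WT Dex arrays were above both WT vehicle arrays of this fit by each probe. The array left out, WT vehicle replicate 1, read 1.47 by the variant 1 probe, above every WT Dex array. Neither call held with the slide block, with the replicate block or with no filter on low signals. Both were also lost without WT Dex replicate 2, GR-C3 vehicle replicate 2 or 3, or GR-C3 Dex replicate 2 or 3. The WT change of this fit rests on WT vehicle replicates 2 and 3, and without either a lone WT vehicle array would remain. With all 12 arrays neither interaction was called. Groups of 3 arrays were not tested for single outlying samples.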

How the results depend on the processing

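Member probes called varied with the setting, as did the share of all probes called. The share with Dex in WT was 0.107% with 12 arrays, and 4.05% with the slide block. On 11 arrays it was 11.1%, 12.1% at gene level and 5.89% with WT arrays alone. For Dex in GR-C3 it was 0.11% (12 arrays) and 2.7% (11), and 2.82% with GR-C3 arrays alone. The interaction share with 11 arrays was 0.855%, 1.13% at gene level and 0.121% with the slide block. With Dex in WT and 12 arrays, the 1 call became 0 with no filter, 0 with WT arrays alone, 4 with the slide block and 0 to 5 on leaving out single arrays. With 11 arrays the 5 calls became 3 at gene level (1 probe a gene, 7 tested), 3 with WT arrays alone and 2 to 6 on leaving out single arrays. With Dex in GR-C3 and 12 arrays, 0 became 1 with GR-C3 arrays alone and 0 to 1 on leaving out arrays. With 11 arrays, 1 became 0 with normexp, 2 with probes above background on all arrays, 0 at gene level, 0 with the slide block and 0 to 2 on leaving out arrays. The interaction count with 12 arrays was 0 to 2 on leaving out arrays. With 11 arrays, 2 became 0 with no filter, 1 at gene level, 0 with the slide block and 0 to 3 on leaving out arrays. Genotype calls at gene level became 2 under vehicle with 12 and with 11 arrays (24.7% and 26.9% of all probes). Under Dex they became 5 at gene level (29.4% with 12 and 39.6% with 11 arrays) and 5 with the slide block (14.2% and 13.6%). They ranged from 5 to 7 (12 arrays) and 5 to 6 (11) under vehicle and from 6 to 9 and 8 to 10 under Dex on leaving out arrays. A pairing by replicate number was neither shown nor excluded. Of 18 same-number pairs of arrays 4 correlated above 0.1 in their deviations from the group means, and 4 of 12 arrays correlated best with their own number. With the replicate block the calls with Dex in WT were 0 with 12 (0% of all probes) and 6 with 11 arrays (13.8%). The interaction calls with 11 arrays were 0 (0.741% of all probes). The Dex change of variant 2 minus that of the shared Il1rl1 probe was 0.0038 under quantile normalization, against -0.05, with 12 arrays.

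Over single member probes and alternatives, 2185 values kept direction and side of the threshold, 82 lost a call, 32 gained one and 78 changed sign without a call in either setting. None changed sign where a call was made. With normexp the median interaction of all probes moved from 0.03 to -0.07 (12 arrays), and the members called became 6 higher and 0 lower with Dex in WT (11 arrays) and 4 higher and 2 lower under vehicle (12 arrays). With the slide block the median genotype difference moved from 0.08 to -0.04 under vehicle and from 0.11 to -0.0046 under Dex (12 arrays). Of all probes called, the share called higher with 12 arrays moved from 33.3% to 54.5% (quantile) and 74% (normexp) with Dex in WT, from 82.4% to 38.7% (quantile) with Dex in GR-C3 and from 58.7% to 48.4% (quantile) for the genotypes under Dex. With 11 arrays it moved from 43.6% to 57.3% (normexp), from 65.3% to 49.5% (quantile) and, for the interaction, from 29% to 17.4% (quantile) and 15.2% (normexp). Of all probes, 33 were called with Dex in WT with 12 arrays, 1253 with the slide block and 0 with the replicate block. WT vehicle replicate 1 is alone on its slide, so the slide block fits it exactly and it adds nothing to the blocked comparisons. With 11 arrays 3481 probes were called in this comparison, and 1251 with the slide block. Signal over background limits Il1a, Il1b, the variant 1 probe of Il1rap and, outside the members, Il1r2. Background treatment also bears on Il33 and the junction probe of Il1rn. With normexp the Dex changes of Il33 in WT and of that Il1rn probe in GR-C3 cells were smaller and not called (11 arrays). So was the genotype difference of Il33 under Dex with 12 arrays. Apart from the smaller number of probes or arrays that an alternative tests, and the array that the slide block sets aside, the cause of these changes was not tested.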
